A study of Mus musculus with 6 samples.

Results

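The genes examined here are 10 members of the BCL2 family, the proteins that decide whether the outer membrane of the mitochondrion is opened during apoptosis. They were chosen by name: 7 pro-apoptotic members (Bbc3, Bcl2l11, Bid, Bad, Pmaip1, Bax and Bak1) and 3 anti-apoptotic members (Bcl2, Bcl2l1 and Mcl1). Of the 10, 9 had at least 1 probe on the array, 28 probes in all out of 45281, and these 9 stand against 19057 genes named on the array. Bax, an effector of membrane opening, had no probe named for it in the annotation used here and was not analysed here.

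RNA was taken on day 4 from E14, an established line of mouse embryonic stem cells kept on gelatin in serum and LIF with no feeder layer. There were 3 arrays of cells transfected with an shRNA plasmid against Ncoa3, a coactivator of nuclear receptors, and 3 arrays of cells transfected with a scrambled shRNA. Samples of a group are named biological replicates in the labels, with no separate cultures given, so the p-values measure the spread between these samples. The labels' treatment protocol names an Esrrb shRNA plasmid for all samples, whereas the titles and the design name Ncoa3. The sources used here do not give how many cells took up the plasmid. The labels therefore do not settle which plasmid was used, and the groups are called Ncoa3 knockdown and scrambled after their titles.

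BCL2 family members act in 3 roles. BH3-only proteins carry the stress signal, the effectors Bax and Bak1 form the pores through which cytochrome c leaves the mitochondrion, and the anti-apoptotic members hold both of the other kinds in check by binding them. Embryonic stem cells are known to be sensitive to this pathway, and several of its genes are direct targets of p53 or of FOXO factors in mammalian cells.

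After Ncoa3 knockdown, 3 of the 8 members that could be measured rose and none fell, where 21.9% of all genes and unnamed probes were called higher and 23.3% lower. Those that rose were the BH3-only genes Bbc3, which encodes PUMA, at 2.27-fold on its brightest probe, and Bcl2l11, which encodes BIM, at 2.35-fold, together with the anti-apoptotic Bcl2l1, which encodes BCL-XL, at 1.94-fold. Every probe of these 3 genes that passed the detection filter rose. Bid, Bad, Pmaip1, Bak1 and Mcl1 did not pass the test, and Bcl2 was not above background on any array. Genes of both roles therefore stood among those that rose. A gene was called with a limma adjusted p under 0.05, with adjustment over all 16674 probes detected on at least 3 of the 6 arrays.

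The number of detected probes was between 16262 and 17105 on Ncoa3 knockdown arrays and between 15720 and 16311 on scrambled arrays. Correlations across kept probes were between 0.994 and 0.996 within groups and between 0.970 and 0.973 between them. The only probe for Ncoa3 was below the detection threshold on all 6 arrays, at a raw intensity of 89.8 ± 1.92 (SD, n = 3) in Ncoa3 knockdown samples and 93.0 ± 6.90 (SD, n = 3) in scrambled samples, so the knockdown could not be checked. All 6 embryonic stem cell markers, Pou5f1, Sox2, Nanog, Zfp42, Esrrb and Dppa5a, were detected on every array and fell, by 0.20 to 0.71 on the log2 scale; the call of Dppa5a, whose change was -0.20, was lost when any 1 of the 6 arrays was left out, with values between -0.23 and -0.16. Of 8 trophectoderm markers, 5 passed the filter and all 5 rose (Cdx2, Krt8, Krt18, Krt19 and Gata3), while Hand1 and Eomes were not detected on any array. Cdx2, Krt19 and Gata3 passed the filter through Ncoa3 knockdown arrays alone and so had to differ. The summed level of the trophectoderm markers was between 1410 and 1570 on Ncoa3 knockdown arrays, against 313 to 362 on scrambled arrays, in background-corrected intensity. Of 6 endoderm markers, 3 passed the filter and 2 rose, Gata6 and Sox7 (Sox7 not without any 1 Ncoa3 knockdown array), with sums of 247 to 262 in Ncoa3 knockdown and 172 to 179 in scrambled samples, and Gata4 and Sox17 were not detected on any array. No fibroblast or haematopoietic marker passed the filter: the fibroblast sums were 41.2 to 55.8 in Ncoa3 knockdown and 58.4 to 74.2 in scrambled samples, with Col1a1, Col1a2, Col3a1 and Postn not detected on any array, and the haematopoietic sums were 26.4 to 29.4 in Ncoa3 knockdown and 24.8 to 41.8 in scrambled samples, with Ptprc and Hbb-bt not detected on any array. The part of these markers in the changes of the BCL2 family was not tested. In such bulk RNA, a change in the share of cells of a type and a change in RNA per cell cannot be told apart.

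Of the 28 BCL2 family probes, 13 passed the detection filter, each on all 6 arrays, so that none of them passed through 1 group alone. Of these 13, 8 were called higher and 0 lower in Ncoa3 knockdown, where 43.6% of all kept probes were called, 20.9% higher and 22.7% lower. The groups did not overlap for 9 of the 13, against 55.2% of all kept probes, and every Ncoa3 knockdown array lay above every scrambled array for 7, against 25.4%. At least 1.5-fold higher were 7 of the 13, against 8.8% of all kept probes. The probes of 1 gene share their transcript, so the 8 calls are those of 3 genes.

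**Figure D1:**
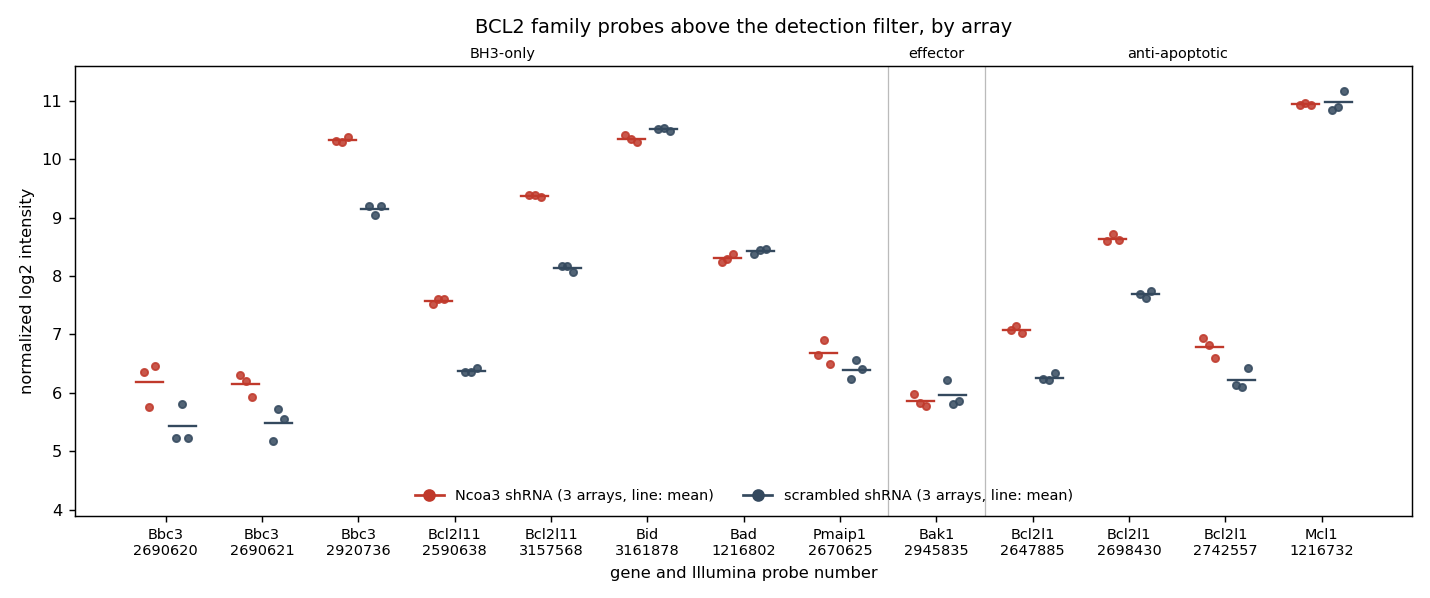
Normalized log2 intensity (y axis) of the 13 BCL2 family probes above the detection filter (x axis, by role), with the 3 Ncoa3 knockdown arrays left of the 3 scrambled arrays and the group mean as a line. The groups lay apart, with Ncoa3 knockdown above, for 7 probes of Bbc3, Bcl2l11 and Bcl2l1, and overlapped for the Bbc3 probe ILMN_2690620, Pmaip1, Bak1 and Mcl1.

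Among the BH3-only genes, Bcl2l11 and Bbc3 rose by like amounts on their brightest probes, with 95% intervals that overlapped. BIM, the product of Bcl2l11, binds all anti-apoptotic members and can activate the effectors directly. Probe ILMN_3157568 read 9.38, 9.39 and 9.35 in Ncoa3 knockdown samples and 8.17, 8.17 and 8.07 in scrambled samples, in normalized log2 intensity. Every Ncoa3 knockdown array lay above every scrambled array, and the groups were separated by far more than their spread. The log2 change was 1.24 ± 0.06 (SE), with a limma adjusted p of 1.02e-05. ILMN_2590638, annotated to the Bcl2l11 transcript NM_009754 rather than NM_207680, read 7.52, 7.61 and 7.60 in Ncoa3 knockdown samples and 6.36, 6.36 and 6.43 in scrambled samples. Its log2 change was 1.19 ± 0.06 (SE), with a limma adjusted p of 1.19e-05. The 95% intervals of both probes, 1.09 to 1.38 and 1.04 to 1.34, overlapped. Whether these probes tell the 2 annotated transcripts apart was not tested. The other 2 probes of Bcl2l11, annotated to the same transcript as ILMN_3157568, did not pass the filter. One of them, ILMN_3078327, was not detected on any array, with raw intensities of 82.2 to 96.0 in Ncoa3 knockdown samples and 88.7 to 91.3 in scrambled samples.

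Bbc3 encodes PUMA, a BH3-only protein known as a direct target of p53. Its probe ILMN_2920736 read 10.31, 10.30 and 10.38 in Ncoa3 knockdown samples and 9.19, 9.05 and 9.20 in scrambled samples. All Ncoa3 knockdown arrays were higher, by 1.18 ± 0.07 (SE) on the log2 scale with a limma adjusted p of 2.05e-05. Both other probes of Bbc3 lay close to background. ILMN_2690621 read 6.31, 6.21 and 5.93 in Ncoa3 knockdown samples and 5.17, 5.73 and 5.55 in scrambled samples, a log2 change of 0.67 ± 0.16 (SE) with a limma adjusted p of 0.0117. ILMN_2690620 read 6.36, 5.76 and 6.46 in Ncoa3 knockdown samples and 5.23, 5.81 and 5.23 in scrambled samples. Here the groups overlapped, since Ncoa3 knockdown replicate 2 was below scrambled replicate 2. Its log2 change was 0.77 ± 0.22 (SE), with a limma adjusted p of 0.0269, and it did not pass the test without scrambled replicate 1 (0.67) or 3 (0.67) or without Ncoa3 knockdown replicate 1 (0.68) or 3 (0.63). Without subtraction of the background the changes of these dim probes were 0.30 and 0.35, while that of the bright probe was 1.09.

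Bid, Bad and Pmaip1, the other BH3-only genes, did not pass the test. Bid encodes a protein that is cut by caspase-8 and then activates the effectors, and its probe ILMN_3161878 read 10.42, 10.34 and 10.29 in Ncoa3 knockdown samples and 10.51, 10.54 and 10.49 in scrambled samples. All Ncoa3 knockdown arrays were lower, by a small margin: the log2 change was -0.16 with a 95% interval of -0.31 to -0.01 and a limma adjusted p of 0.0737. Bid was called lower under 4 of the 18 alternatives, with values down to -0.21. Bad encodes a protein that binds BCL2 and BCL-XL unless it is phosphorylated. Its probe read 8.24, 8.29 and 8.38 in Ncoa3 knockdown samples and 8.38, 8.44 and 8.46 in scrambled samples, with a 95% interval for the log2 change of -0.28 to 0.03 (limma adjusted p = 0.170). Every Ncoa3 knockdown array lay below every scrambled array, though the nearest pair read the same at 2 decimals, and scaling by the median of all probes gave a change of 0.03. Pmaip1, which encodes NOXA, a BH3-only protein that binds MCL1, read 6.64, 6.91 and 6.50 in Ncoa3 knockdown samples and 6.24, 6.56 and 6.40 in scrambled samples on its only kept probe. The groups overlapped, and the interval of the log2 change, -0.01 to 0.58, did not reach the changes of Bcl2l11 (limma adjusted p = 0.103). Pmaip1 was called higher with scaling by the median of all probes (0.45, limma adjusted p = 0.0318) and in the authors' normalized values (0.21, limma adjusted p = 0.0205).

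Bak1 was the only effector member with a probe. Bok, a relative of the effectors outside the chosen members, is given with the further family genes below. Bak1 read 5.97, 5.82 and 5.78 in Ncoa3 knockdown samples and 6.23, 5.80 and 5.87 in scrambled samples, and the groups overlapped. Its log2 change was -0.11, with a 95% interval of -0.39 to 0.18 and a limma adjusted p of 0.511. The probe was dim, with raw intensities of 121 to 132 in Ncoa3 knockdown samples and 119 to 144 in scrambled samples, against 96.8 to 109 for the dimmest detected probe of each array.

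Of the anti-apoptotic genes, Bcl2l1 rose on each of its 3 kept probes. BCL-XL, its product, binds BH3-only proteins and effectors at the mitochondrion. Probe ILMN_2698430 read 8.60, 8.71 and 8.61 in Ncoa3 knockdown samples and 7.69, 7.62 and 7.75 in scrambled samples. The log2 change was 0.95 ± 0.07 (SE), with a limma adjusted p of 4.80e-05. Probe ILMN_2647885 read 7.08, 7.15 and 7.03 in Ncoa3 knockdown samples and 6.23, 6.21 and 6.34 in scrambled samples, a log2 change of 0.82 ± 0.07 (SE) with a limma adjusted p of 9.62e-05. The third, ILMN_2742557, read 6.95, 6.81 and 6.60 in Ncoa3 knockdown samples and 6.14, 6.10 and 6.42 in scrambled samples, and changed by 0.57 ± 0.12 (SE; limma adjusted p = 0.00705). On each of these probes every Ncoa3 knockdown array lay above every scrambled array. The remaining Bcl2l1 probe, ILMN_1255430, annotated to the cDNA AK053168 rather than to NM_009743, was not detected on any array.

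Mcl1 encodes a short-lived anti-apoptotic protein that early embryos need. Its probe ILMN_1216732 read 10.92, 10.95 and 10.93 in Ncoa3 knockdown samples and 10.84, 10.90 and 11.17 in scrambled samples, with scrambled replicate 3 the highest of the 6. Its log2 change was -0.03, and the 95% interval of -0.25 to 0.18 lay below the change of every kept Bcl2l1 probe (limma adjusted p = 0.796). Bcl2, the founding member of the family, had 9 probes, and none of them was detected on any array. Their raw intensities were 61.8 to 99.5 in Ncoa3 knockdown samples and 61.5 to 103 in scrambled samples, and the smallest detection p among them was 0.0323. These probes give no level and no change for Bcl2. The only remaining probe of Bid and the 2 remaining probes of Pmaip1 were also not detected on any array, with raw intensities of 88.3 to 100.2 and 77.3 to 102 over all 6 arrays.

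**Figure D2:**
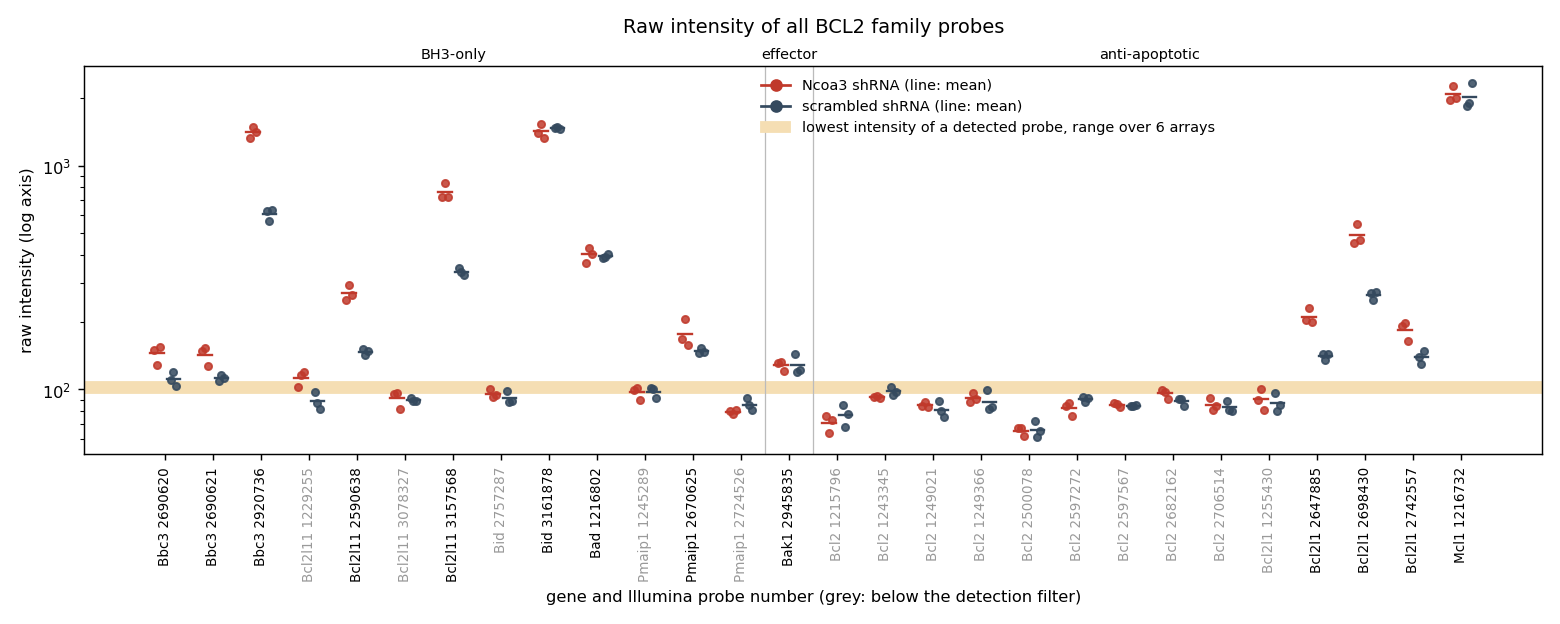
Raw intensity on a log axis (y axis) of all 28 BCL2 family probes (x axis, by role), 3 Ncoa3 knockdown arrays left of 3 scrambled arrays with the mean as a line, and a band for the lowest intensity of a detected probe over the 6 arrays (96.8 to 109). All 9 Bcl2 probes lie in or below the band, while the brightest Bbc3, Bcl2l11 and Bcl2l1 probes lie well above it.

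Set side by side, the pro-apoptotic members had 5 of 9 kept probes higher and the anti-apoptotic members 3 of 4, with none lower in either role, where 20.9% of all kept probes were called higher. The median log2 change was 0.67 over the pro-apoptotic probes and 0.70 over the anti-apoptotic probes, against -0.03 over all kept probes. These medians depend on how many probes a gene has. With the brightest probe standing for each gene, the median was 0.09 over 6 pro-apoptotic genes, of which 2 rose, and 0.46 over 2 anti-apoptotic genes, of which 1 rose, where 21.9% of all genes and unnamed probes were called higher. Without scrambled replicate 1 the median over the pro-apoptotic probes was 0.52. Among the pro-apoptotic probes, rises of 0.67 to 1.24 stood beside members whose changes were between -0.16 and 0.28. Among the anti-apoptotic probes, rises of 0.57 to 0.95 stood beside Mcl1 at -0.03. Across all kept probes, 90% of log2 changes lay between -0.64 and 0.82, and the brightest probes of Bcl2l11, Bbc3 and Bcl2l1 lay above that range. No p-value is given for the difference between the roles, since the members were chosen with results of these data known.

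**Figure D3:**
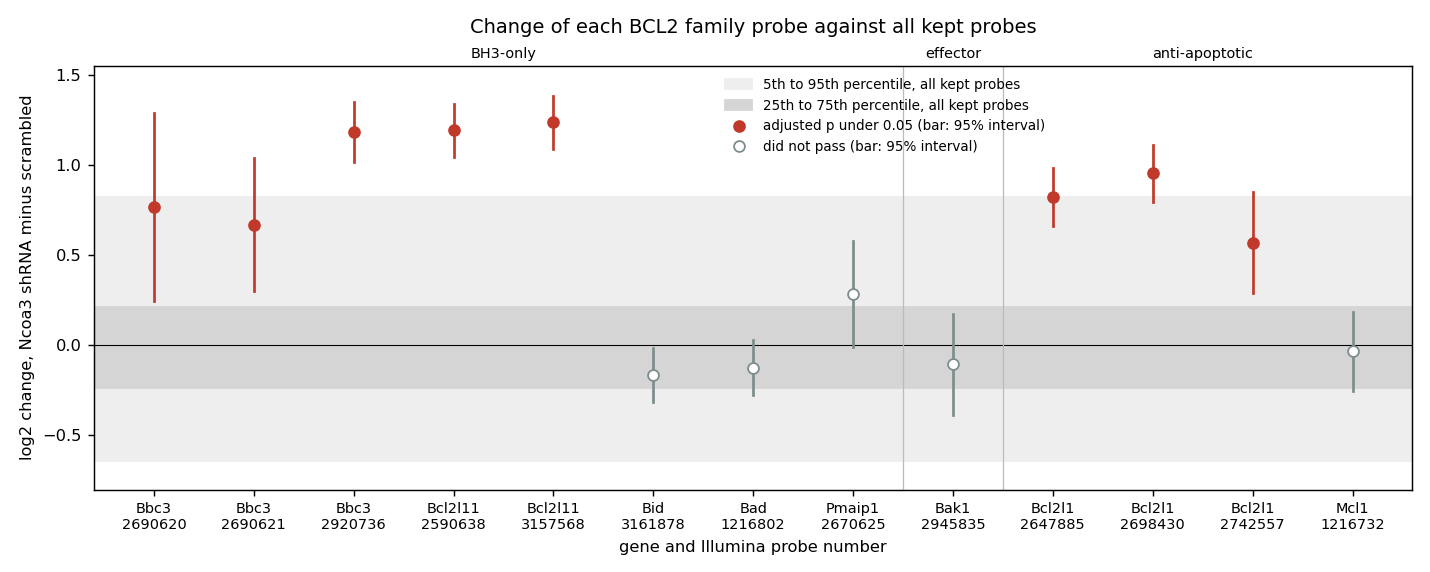
Log2 change, Ncoa3 knockdown minus scrambled (y axis), with its 95% interval for each kept BCL2 family probe (x axis, by role), over bands that hold the central 50% and 90% of all 16674 kept probes. Filled points passed the test: 5 of 9 pro-apoptotic and 3 of 4 anti-apoptotic probes, all above 0.

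Some sequences upstream of the 3 genes that rose are shown as a description. RefSeq windows on GRCm38.p6 from 250 bases before to 50 bases after an annotated start were matched for all members but Pmaip1, 15 windows in all, Bax included. They were searched on both strands for AAGGTCA, a half-site of nuclear receptors such as Esrrb, and for TGTTTAC, the core of FOXO sites. The E-box CACGTG and the p53 half-site RRRCWWGYYY (R: A or G, W: A or T, Y: C or T) were searched likewise. Only exact matches counted, so a site that departs from its pattern at any base was not found. The motifs were picked after the values were known. No motif stood in windows of all 3 genes that rose. Only the windows with a nuclear receptor or FOXO match in these genes follow, with the match in capitals.
Bbc3, chr7:16310011-16310310, plus strand: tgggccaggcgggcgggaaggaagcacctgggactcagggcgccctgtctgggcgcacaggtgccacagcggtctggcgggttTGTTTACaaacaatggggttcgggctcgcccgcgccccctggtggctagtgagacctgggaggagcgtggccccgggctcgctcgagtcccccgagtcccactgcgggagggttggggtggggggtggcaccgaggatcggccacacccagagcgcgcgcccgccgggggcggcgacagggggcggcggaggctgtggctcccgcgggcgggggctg
Bcl2l11, chr2:128125788-128126087, plus strand: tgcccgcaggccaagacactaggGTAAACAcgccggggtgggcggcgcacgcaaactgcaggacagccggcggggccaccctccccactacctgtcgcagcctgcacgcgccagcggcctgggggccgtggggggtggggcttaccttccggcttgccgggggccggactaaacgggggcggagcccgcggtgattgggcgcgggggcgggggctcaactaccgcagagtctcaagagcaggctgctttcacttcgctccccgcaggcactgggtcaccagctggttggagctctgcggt
Bcl2l1, chr2:152828440-152828739, minus strand: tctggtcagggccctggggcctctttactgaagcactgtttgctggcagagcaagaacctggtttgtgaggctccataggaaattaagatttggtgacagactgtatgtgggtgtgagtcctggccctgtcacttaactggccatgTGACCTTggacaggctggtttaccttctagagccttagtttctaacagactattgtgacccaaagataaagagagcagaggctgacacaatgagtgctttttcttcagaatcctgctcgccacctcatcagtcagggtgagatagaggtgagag

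The FOXO core stood in 1 of 3 Bbc3 windows and 1 of 2 Bcl2l11 windows, 167 and 227 bases before the start, and in no window of the other members searched. Of all 32851 windows, 3.65% held it. The nuclear receptor half-site stood in 1 of 3 Bcl2l1 windows, 104 bases before the start, and in no other member's window, against 4.72% of all windows. The E-box stood in a further Bbc3 window and in that of Bax, against 7.15% of all windows. An exact p53 half-site stood only in that of Bax, against 8.36% of all windows. Sites of p53 with a mismatch were not looked for, so the other windows are not shown to lack one. Foxo3 and Foxo1, which encode FOXO factors, are named here after their values were seen. Foxo3 had a log2 change of 0.33 ± 0.11 (SE) with a limma adjusted p of 0.0394. It did not pass the test without scrambled replicate 1 (0.29) or 3 (0.27) or Ncoa3 knockdown replicate 2 (0.27) or 3 (0.33). Foxo1 changed by 0.15 and did not pass the test. Foxo3 was called higher under 13 of the 18 alternatives. Some but not all other listed regulators of BCL2 family genes were called higher under all 18. Trib3 (0.52) and Stat3 (0.31), also named after their values were seen, were among them. Whether FOXO factors or any of the motifs had a part in the rises was not tested.

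The genes whose log2 values, centred on the scrambled mean, lay nearest to those of the Bcl2l11 probe ILMN_3157568 over the 6 arrays were Mt1, a metallothionein, at a Euclidean distance of 0.07, Zfp365 at 0.09 and Dgka, a diacylglycerol kinase, at 0.10. Mt1 rose 2.39-fold, Zfp365 2.30-fold and Dgka 2.40-fold, each higher on 3 of 3 Ncoa3 knockdown arrays. These genes were picked for lying near a probe that rose, so their rises follow from the choice.

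The rest of the pathway was read from lists of genes in which the brightest kept probe stood for each gene, against which 21.9% of all genes and unnamed probes were called higher and 23.3% lower, with a median of -0.03. Of 17 further BCL2 family genes, 8 were measured, and 2 of these rose and 1 fell (median -0.01). Bnip2, a partner of BCL2, rose by 0.85 ± 0.09 (SE; limma adjusted p = 2.28e-04), and Bnip3l, a mitophagy receptor, by 0.265 ± 0.07 (limma adjusted p = 0.0209). The Bnip3l call was lost without scrambled replicate 1 (0.21) or Ncoa3 knockdown replicate 1 (0.28) or 3 (0.23), and after median scaling over the kept probes. Bok, a relative of the effectors, fell by 0.62 ± 0.08 (SE; limma adjusted p = 8.75e-04). The other 5 measured genes missed the threshold, and 8 more were on the array below the detection filter.

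Downstream of the mitochondrion, 2 of 7 measured apoptosome and caspase genes rose and 3 fell (median -0.23). Apaf1, the scaffold on which caspase-9 is activated, read 10.66, 10.66 and 10.77 in Ncoa3 knockdown samples and 9.81, 9.81 and 9.84 in scrambled samples. All Ncoa3 knockdown arrays were higher, by 0.88 ± 0.06 (SE; limma adjusted p = 5.07e-05), and its 3 kept probes ran from 0.81 to 0.94. The effector caspase gene Casp6 rose by 0.53. Casp9 fell by 0.33, Casp2 by 0.30 and Cycs, which encodes cytochrome c, by 0.27. The 2 kept probes of Casp2 ran from -0.30 to -0.0087 and those of Casp9 from -0.33 to -0.11. Those of Casp6 ran from 0.28 to 0.53. After median scaling over all probes, which moved the median log2 change of the kept probes by 0.12, none of these 3 falls passed the test. The Cycs call was also lost without scrambled replicate 2 (-0.26) or 3 (-0.22) or Ncoa3 knockdown replicate 2 (-0.28) or 3 (-0.23).

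Of 5 measured genes of inhibitor of apoptosis proteins and their antagonists, 0 rose and 2 fell (median -0.10). Both that fell encode mitochondrial antagonists of these inhibitors: Htra2 fell by 0.56 ± 0.06 (SE; limma adjusted p = 4.10e-04) and Diablo by 0.24 ± 0.07 (limma adjusted p = 0.0223). The Diablo call was lost without scrambled replicate 2 (-0.23) or 3 (-0.24) or Ncoa3 knockdown replicate 1 (-0.25) or 2 (-0.20). Scaling by the median of all probes also removed this call. The other 3 measured genes missed the threshold, and the 4 probes of Xiap, which encodes a direct caspase inhibitor, were not detected on any array.

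In the death receptor arm, 2 of 7 measured genes rose and 4 fell (median -0.25). Both that rose encode receptors and were not above background in scrambled samples: Fas, at least 2.62-fold higher (limma adjusted p = 1.26e-04), and the TNF receptor Tnfrsf1a, at least 1.135-fold higher (limma adjusted p = 4.35e-04). Such a bound sets the brighter group against the lowest detected signal of each array of the other group. On their brightest probes both genes passed the filter through Ncoa3 knockdown arrays alone and so had to differ. The 2 kept probes of Fas ran from 0.96 to 1.94 in fitted log2 change. Those that fell were Cflar, an inhibitor of caspase-8, by 0.44, Casp8 itself by 0.38, the receptor Tnfrsf10b by 0.37 and the adaptor Fadd by 0.25. After median scaling over all probes none of the 4 falls passed the test. The 3 kept probes of Tnfrsf10b ran from -0.37 to 0.85 and so differed in sign. The Tnfrsf10b call was lost without scrambled replicate 2 (-0.38) or 3 (-0.27) or Ncoa3 knockdown replicate 1 (-0.34) or 2 (-0.32). That of Casp8 was lost without Ncoa3 knockdown replicate 2 (-0.35) or 3 (-0.33), and that of Fadd without any array but Ncoa3 knockdown replicate 1, at values of -0.29 to -0.20; Fadd was called under 7 of 18 alternatives.

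Among regulators of BCL2 family genes, 8 of 17 measured genes rose and 3 fell (median 0.15). Mdm2, which encodes the ubiquitin ligase of p53 and is itself a p53 target, read 12.88, 12.96 and 12.84 in Ncoa3 knockdown samples and 11.82, 11.72 and 11.83 in scrambled samples. It rose by 1.10 ± 0.07 (SE; limma adjusted p = 2.37e-05), and Cdkn1a, the p53 target that encodes the cell cycle inhibitor p21, by 0.78 ± 0.07 (limma adjusted p = 1.16e-04). Ddit3, which encodes CHOP, a factor known to induce Bcl2l11 and Bbc3 under stress of the endoplasmic reticulum, rose by 0.99 ± 0.09 (limma adjusted p = 1.63e-04). Trp73, a relative of p53, was not above background in scrambled samples and was at least 1.16-fold higher (limma adjusted p = 0.00751), and it passed the filter through Ncoa3 knockdown arrays alone. Trp53 had no probe named for it here. Those that fell were Sphk1, a sphingosine kinase, by 0.56, Myc by 0.56 and the kinase Pim3, which phosphorylates BAD, by 0.33. The Myc call was lost without scrambled replicate 1 (-0.53) or 2 (-0.43) or Ncoa3 knockdown replicate 3 (-0.44). Scaling by the median of all probes also ended it.

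Of 17 measured partners and turnover factors of BCL2 family proteins, 3 rose and 1 fell (median 0.03). Fbxw7, the ubiquitin ligase subunit that marks MCL1 for degradation, rose by 0.93 ± 0.09 (SE; limma adjusted p = 1.90e-04), beside Mcl1 RNA that did not pass the test. Dynll2, a dynein light chain that binds BMF, rose by 0.59 ± 0.12 (limma adjusted p = 0.00626), and Bcap31, an endoplasmic reticulum partner of BCL2, by 0.27 ± 0.08 (limma adjusted p = 0.0275). Vdac3, an anion channel of the outer mitochondrial membrane, fell by 0.41 ± 0.12 (limma adjusted p = 0.0289). The 2 kept probes of Bcap31 ran from 0.05 to 0.27. The Bcap31 call was lost without replicate 1 or 2 of either group (0.23 to 0.25). The Vdac3 call was lost without scrambled replicate 2 (-0.42) or 3 (-0.33) or Ncoa3 knockdown replicate 1 (-0.33) or 2 (-0.38). Scaling by the median of all probes ended it too.

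**Figure D4:**
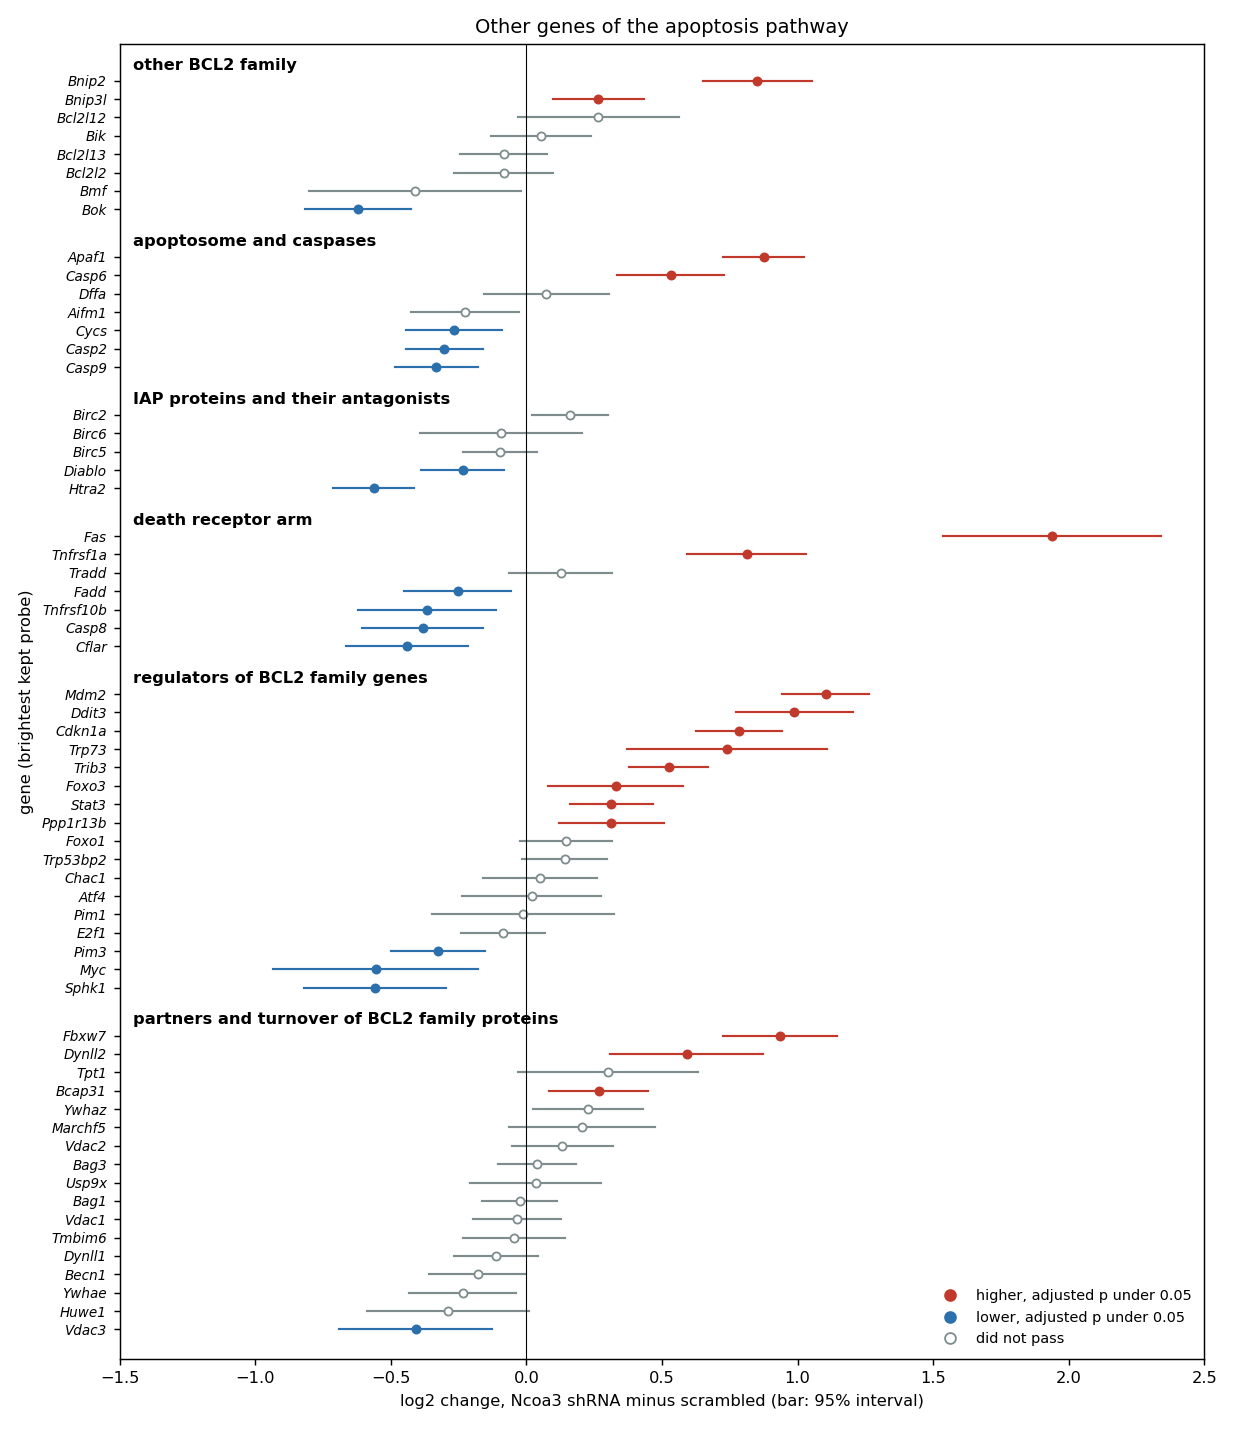
Log2 change, Ncoa3 knockdown minus scrambled (x axis), with its 95% interval for each measured gene of 6 pathway lists (y axis). Filled points passed the test, and the largest changes are those of Fas at 1.94 and Mdm2 at 1.10. For Fas, Tnfrsf1a and Trp73, not above background in scrambled samples, the plotted change is the fitted one and not the bound.

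The calls of the BCL2 family members were compared over 18 other ways of processing. The brightest probes of Bbc3, Bcl2l11 and Bcl2l1 were called higher under all 18, with log2 changes of 1.09 to 1.31, 1.06 to 1.37 and 0.77 to 1.10. The calls of Bak1, Bad and Mcl1 were the same under all 18, none of them past the test, although their signs varied: -0.19 to 0.05 for Bak1, -0.16 to 0.03 for Bad and -0.12 to 0.07 for Mcl1.

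**Figure D5:**
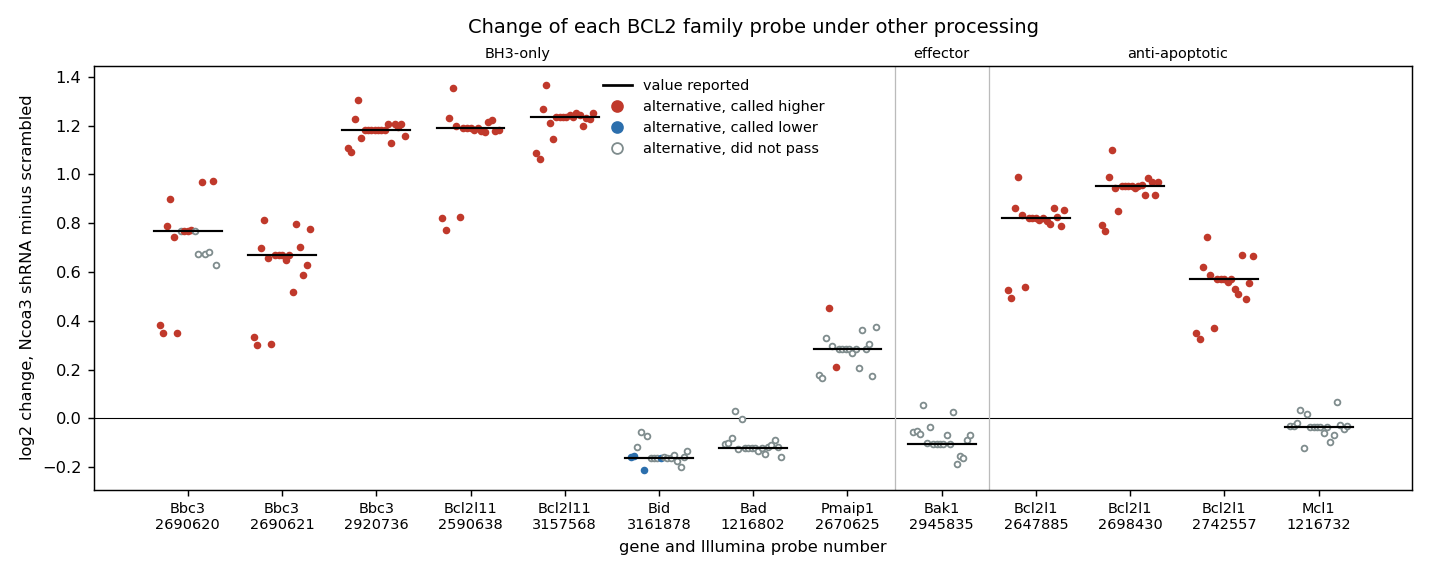
Log2 change, Ncoa3 knockdown minus scrambled (y axis), of each kept BCL2 family probe (x axis, by role) under each alternative processing, with the reported value as a line. Bbc3, Bcl2l11 and Bcl2l1 lie above 0 under each alternative run, while Bid was called lower under 4 and Pmaip1 higher under 2 of 18.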

How the data were processed

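Total RNA of 3 Ncoa3 knockdown and 3 scrambled samples was labelled as biotinylated cRNA and hybridised to Illumina bead arrays, per the labels' protocols. Raw probe intensity came from the deposited non-normalized table, in which a detection p-value from the authors stands beside each value. A further table of normalized intensity was deposited by the authors; it kept the order of probes on every array (rank correlation of 1), and its method is not given in the sources used here.

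Background correction with negative controls inferred from the detection p-value, quantile normalization and log2 were done by neqc (limma 3.58.1, R 4.3.3; offset 16). Probes with detection p under 0.01 on at least 3 arrays were kept, 16674 of 45281, and every kept probe was tested on its own with lmFit and eBayes, 2-sided and without covariates. Symbols came from GEO's platform annotation: 34885 probes had 1 gene, 18 several, and 10378 were unnamed. Every log2 change is Ncoa3 knockdown minus scrambled, and ± is the standard error where marked SE. With 3 arrays a group, the smallest exact permutation p is 0.1. The number of arrays limits the precision.

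Named genes were every member, Ncoa3, a fixed set of core pathway genes, the 3 nearest profiles and up to 4 called genes in each direction per pathway list. Foxo3, Foxo1, Trib3 and Stat3 were named outside this rule, after their values were seen. Members, lists and tests were chosen with earlier results of these data known. The functions were tested on simulated arrays. Slide and scan date are not given in the sources used here. Promoter windows came from RefSeq tables (GRCm38.p6). Same-numbered samples did not deviate together (correlations -0.004 to 0.015), so the replicate number was not used as a pairing.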

Additional observations from a re-analysis of the deposited data

Results flagged for a closer look

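A probe of Bcl2l11 outside the comparisons, ILMN_1229255, was detected on 2 of 3 Ncoa3 knockdown arrays and on no scrambled array. Its raw intensity was 103, 117 and 120 in Ncoa3 knockdown samples and 97.6, 87.1 and 81.8 in scrambled samples. With every probe tested, its log2 change was 0.85 ± 0.16 (SE), with a limma adjusted p of 0.0122. As the scrambled samples were not above background, the size of this change is not well set.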

How the results depend on the processing

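The replicate block was run although the replicate numbers do not pair the samples: 7 BCL2 family probes were called higher instead of 8, with 3245 higher and 3399 lower of all kept probes against 3480 and 3791. The probe that lost its call was ILMN_2690620 of Bbc3 (adjusted p = 0.0675). Leaving out each array in turn left 7 to 8 family probes higher and 0 lower, with 2938 to 3329 higher and 3015 to 3392 lower over all probes, a pro-apoptotic median of 0.52 to 0.80 and an anti-apoptotic median of 0.65 to 0.77. The pro-apoptotic and anti-apoptotic medians were 0.33 and 0.44 with normexp at an offset of 50, 0.30 and 0.41 without subtraction, and 0.30 and 0.45 in the authors' normalized values. With no filter on dim probes they were 0.25 and 0.13, since undetected probes enter, and with 1 probe per gene 0.089 and 0.46, with 3 family probes higher because only 8 are tested. Median scaling over all probes gave an anti-apoptotic median of 0.87 and 2012 lower probes, and 69.9% of its called probes were higher, as were 59.7% in the authors' values, against 47.9% as reported. Bid alone made the count of lower family probes 1 in place of 0 with normexp at an offset of 50, without subtraction, after median scaling over the kept probes and with a trended and robust prior. Where no cause is given for such a change, the cause was not tested. Among family probes, 217 of the comparisons of a value with its alternative kept direction and call, 6 lost a call and 6 gained one, where 2 values that both missed the test counted as kept whatever their sign. The alternatives for the pathway lists were added after seeing the data: the genes that rose numbered 6 to 10 among regulators and 0 to 2 in the death receptor arm, where genes not detected on all 6 arrays drop out under the stricter filter. With no filter the Bcl2 probe ILMN_2682162, not detected on any array, passed the test (adjusted p = 0.0466). Slide as a block was not run. Raw intensities near the dimmest detected probe limit what can be said of Bak1, Bcl2 and the dim Bbc3 probes. The same limit holds for dim pathway genes, Casp8, Cflar, Sphk1 and Myc among them. Without background subtraction the log2 changes of Casp8, Cflar, Sphk1 and Myc were -0.19, -0.22, -0.25 and -0.22, each still called lower.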
